A study of Mus musculus with 8 samples.

Results

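Acta2, Tagln, Cnn1, Actg2, Myh11, Myl9, Tpm1, Tpm2, Cald1 and Lmod1 are 10 genes of the smooth muscle contractile apparatus, out of 29713 genes in the deposited tables. They were matched by symbol. The set was selected on measured levels, because Acta2, Tagln and Cnn1 led the differences of the glia library from the others, so the glia contrasts are a description and support nothing. RNA sequencing covered 8 mouse libraries, 1 for each group. The glia library and the neuron library came from brain of strain C57, and the way the cells were isolated is not given in the sources used here. The library labelled R1 ESCs is of an embryonic stem cell line from the inner cell mass of the cross 129X1 x 129S1. ICR MEF and OG2 MEF are embryonic fibroblasts from day 13.5 embryos of strain ICR and of strain OG2, a line that carries a green fluorescent reporter driven by Oct4 sequences. Cerebellum, cortex and hippocampus were whole tissues of strain C57. No treatment is recorded, and neither age nor sex nor pooling is given in the sources used here. With 1 library per group the spread between samples was not measured and no p-value is given, and every interval below is a 95% interval of counting error only.

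Smooth muscle shortens when myosin filaments pull on actin filaments. Calcium acts through calmodulin and myosin light chain kinase, which phosphorylates the regulatory light chain, and a phosphatase reverses the step. Tropomyosins, caldesmon, calponin and transgelin lie along or bind the actin filament, and leiomodin starts new filaments. The same genes are switched on in fibroblasts that become myofibroblasts. In brain they mark the smooth muscle of arterioles. Serum response factor (SRF) binds CArG boxes in many of their promoters together with myocardin or the myocardin-related factors, and TEAD factors bind a nearby element whose core is CATTCC, or GGAATG on the other strand.

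Promoter windows of 250 bases before and 50 after the start site were searched on both strands for these motifs, since the members move together across the libraries. RefSeq (GRCm38.p6) gave 8 windows for 7 of the 10 members, with 2 for Cald1. Tagln, Actg2 and Myh11 had no entry. The stretches below carry the matches. Capitals mark a CArG box, exact or with 1 base off the consensus, and GGAATG. The searched motifs did not overlap each other in these stretches.
Acta2, chr19:34255394-34255523, minus strand: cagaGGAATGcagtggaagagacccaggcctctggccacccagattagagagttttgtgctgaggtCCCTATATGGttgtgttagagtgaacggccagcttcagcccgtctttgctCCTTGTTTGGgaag
Myl9, chr2:156775294-156775383, plus strand: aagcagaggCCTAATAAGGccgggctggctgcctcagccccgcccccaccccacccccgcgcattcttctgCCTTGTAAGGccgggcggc
Tpm1, chr9:67049254-67049438, minus strand: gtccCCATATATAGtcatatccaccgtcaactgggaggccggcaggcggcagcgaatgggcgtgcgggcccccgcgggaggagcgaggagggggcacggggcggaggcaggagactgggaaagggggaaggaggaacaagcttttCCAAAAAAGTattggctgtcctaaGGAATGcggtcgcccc
Cald1, chr6:34598294-34598363, plus strand: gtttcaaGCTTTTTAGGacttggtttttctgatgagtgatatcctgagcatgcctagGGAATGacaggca
Lmod1, chr1:135324618-135324697, plus strand: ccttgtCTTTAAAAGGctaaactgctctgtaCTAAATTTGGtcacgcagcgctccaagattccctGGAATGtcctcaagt

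The exact CArG consensus stood once, in Myl9, at positions -161 to -152 from the start. It is present in 1.63% of all 32851 windows. A match with at most 1 base off stood in 5 of the 8 windows (Acta2, Myl9, Tpm1, the upstream Cald1 window and Lmod1), against 21.1% of all windows. GGAATG or CATTCC stood in 4 of the 8 (Acta2, Tpm1, the upstream Cald1 window and Lmod1), against 14.7% of all windows. The windows of Cnn1 and Tpm2 and the downstream window of Cald1 held neither. These matches describe letters in a window, and no binding was measured.

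Acta2 encodes alpha smooth muscle actin, the isoform of vascular muscle and of myofibroblasts. It lies at chr19:34241090-34255590 on the minus strand (GENCODE M21, GRCm38). Its level, in TPM (transcript the abundance RSEM derives by scaling counts by length and library), was 4147 in glia, 7.60 in neuron, 235 in the library labelled R1 ESCs, 4302 in ICR MEF, 5067 in OG2 MEF, 8.02 in cerebellum, 13.5 in cortex and 9.84 in hippocampus. The libraries therefore formed a high trio of glia and both MEFs, an intermediate library labelled R1 ESCs and 4 low libraries. Glia was 1.04-fold below ICR MEF (1.02 to 1.06). The 4 low libraries did not separate from their neighbours in the order beyond counting error, and neuron had 38 counts. In bulk RNA a lower level from fewer cells of a type and from less RNA per cell cannot be told apart, here and below.

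Actg2, gamma smooth muscle actin, is the isoform of gut and other visceral muscle and lies at chr6:83512905-83536265 on the minus strand. It was at 15.2 TPM in glia, 0 in neuron, 63.4 in the library labelled R1 ESCs, 301.5 in ICR MEF, 270.4 in OG2 MEF, 0.38 in cerebellum, 0.40 in cortex and 0 in hippocampus. A count of 0 in neuron allows up to 1.19 TPM at 3 counts, and cerebellum and cortex had 1 count each. Actg2 thus stood high in the MEFs, and its glia level was below that of the library labelled R1 ESCs, unlike Acta2. Acta2 exceeded Actg2 273-fold in glia (207 to 369), 3.71-fold in the library labelled R1 ESCs (3.20 to 4.32), 14.3-fold in ICR MEF and 18.7-fold in OG2 MEF. The ratio of the pair of smooth muscle actins in glia therefore lay outside the counting intervals of both MEF ratios, which ended at 15.2 and 20.0.

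The pair can be told apart by reads. The coding sequences are 84.2% identical, and 16 of their last 90 coding bases differ. These ends are shown, from GENCODE M21 transcripts, with the differing bases in capitals.
Acta2: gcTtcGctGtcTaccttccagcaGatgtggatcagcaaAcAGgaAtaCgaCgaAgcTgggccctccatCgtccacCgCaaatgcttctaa
Actg2: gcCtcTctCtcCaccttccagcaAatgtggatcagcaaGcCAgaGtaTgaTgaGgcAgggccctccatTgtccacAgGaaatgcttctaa
Of the 1986 stretches of 50 bases in the Acta2 transcript, 7 also occur in another gene, Actg1 among them. For Myh11 it was 26 of 6500, shared with Myh9 and Myh10. The other 8 members shared none.

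Tagln encodes transgelin (SM22 alpha), an actin-binding protein and an early marker of smooth muscle (chr9:45929619-45936058, minus strand). Its level was 2565 TPM in glia, 9.32 in neuron, 81.2 in the library labelled R1 ESCs, 2399 in ICR MEF, 3028 in OG2 MEF, 9.42 in cerebellum, 11.1 in cortex and 11.2 in hippocampus. As for Acta2, glia and both MEFs were high, the library labelled R1 ESCs was intermediate and the other 4 libraries did not separate from their neighbours beyond counting error. Glia lay between the MEFs. Exons of Tagln overlap 108 bases of Pcsk7 and 1241 bases of the antisense gene Gm48529 on the other strand, and strandedness is not given in the sources used here. Pcsk7 had 15.3 to 21.5 TPM in the brain regions, above Tagln there, and 2.0 to 16.8 TPM in the other libraries, below Tagln. The part of both overlaps in the Tagln levels was not tested.

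Cnn1, calponin of smooth muscle, holds back the myosin ATPase on actin (chr9:22099216-22109630, plus strand). It was at 341 TPM in glia, 1.61 in neuron, 9.04 in the library labelled R1 ESCs, 113 in ICR MEF, 123 in OG2 MEF, 0 in cerebellum, 0.40 in cortex and 0.86 in hippocampus. Glia had the highest level, 2.76-fold above OG2 MEF (2.55 to 2.99). The 3 brain regions rested on 0, 2 and 3 counts and could not be ordered.

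Tpm1 and Tpm2 encode tropomyosins, coiled coils that cover the actin filament (chr9:67022590-67049406 and chr4:43514711-43523765, both minus strand). Tpm1 was at 1625 TPM in glia, 123 in neuron, 56.7 in the library labelled R1 ESCs, 2665 in ICR MEF, 3074 in OG2 MEF, 180.4 in cerebellum, 323 in cortex and 261 in hippocampus. It was at 10 TPM or more in all 8 libraries, and its lowest library was the one labelled R1 ESCs. Tpm2 was at 421 TPM in glia, 6.02 in neuron, 619.6 in the library labelled R1 ESCs, 1145 in ICR MEF, 1096 in OG2 MEF, 17.1 in cerebellum, 9.73 in cortex and 10.3 in hippocampus. Tpm2 was thus the member with the highest level in the library labelled R1 ESCs, above its level in glia by 1.47-fold (1.37 to 1.57). The Tpm1 to Tpm2 ratio was 3.86 in glia, 20.5 in neuron, 0.0915 in the library labelled R1 ESCs, 2.33 in ICR MEF and 2.81 in OG2 MEF, and 10.6 to 33.2 in the brain regions. The library labelled R1 ESCs was the one library of the 8 with more Tpm2 than Tpm1.

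Cald1, caldesmon, binds actin and tropomyosin and has a long smooth muscle form and a short form in other cells (chr6:34598500-34775473, plus strand). It was at 916 TPM in glia, 4.17 in neuron, 36.7 in the library labelled R1 ESCs, 1071 in ICR MEF, 1008 in OG2 MEF, 36.2 in cerebellum, 29.1 in cortex and 30.7 in hippocampus. The library labelled R1 ESCs did not separate from the cerebellum (1.01-fold, 0.862 to 1.19). Neuron lay below every other library, 6.97-fold under cortex (5.09 to 9.70).

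Lmod1, leiomodin, nucleates actin filaments in smooth muscle (chr1:135324807-135368065, plus strand). It was at 49.0 TPM in glia, 0 in neuron, 0.82 in the library labelled R1 ESCs, 29.6 in ICR MEF, 31.5 in OG2 MEF, 0.66 in cerebellum, 0.93 in cortex and 0.50 in hippocampus. The library labelled R1 ESCs lay among the low libraries, with 9 counts. The MEFs did not separate from each other (1.06-fold, 0.914 to 1.24).

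Myl9 encodes a regulatory light chain of smooth muscle and non-muscle myosin (chr2:156775420-156781658, plus strand). It was at 1117 TPM in glia, 4.80 in neuron, 56.4 in the library labelled R1 ESCs, 888 in ICR MEF, 861 in OG2 MEF, 26.1 in cerebellum, 28.2 in cortex and 26.0 in hippocampus. The brain regions were close to one another, and neuron was 5.41-fold below hippocampus (2.77 to 11.3).

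Myh11 encodes the smooth muscle myosin heavy chain, the member most restricted to differentiated smooth muscle (chr16:14194535-14291372, minus strand). It was at 1.59 TPM in glia, 0.10 in neuron, 0.16 in the library labelled R1 ESCs, 15.9 in ICR MEF, 9.62 in OG2 MEF, 2.26 in cerebellum, 3.72 in cortex and 2.73 in hippocampus. Myh11 set glia apart from the MEFs: the glia level, from 29 counts, was below that of every brain region. It did not separate from cerebellum (1.42-fold below it, 0.844 to 2.41). The glia interval, 1.06 to 2.28 TPM, did not reach that of cortex, 2.80 to 4.84 TPM. Acta2 exceeded Myh11 2610-fold in glia, 1470-fold in the library labelled R1 ESCs, 271-fold in ICR MEF and 527-fold in OG2 MEF, against 3.55-fold to 3.64-fold in the brain regions.

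**Figure D1:**
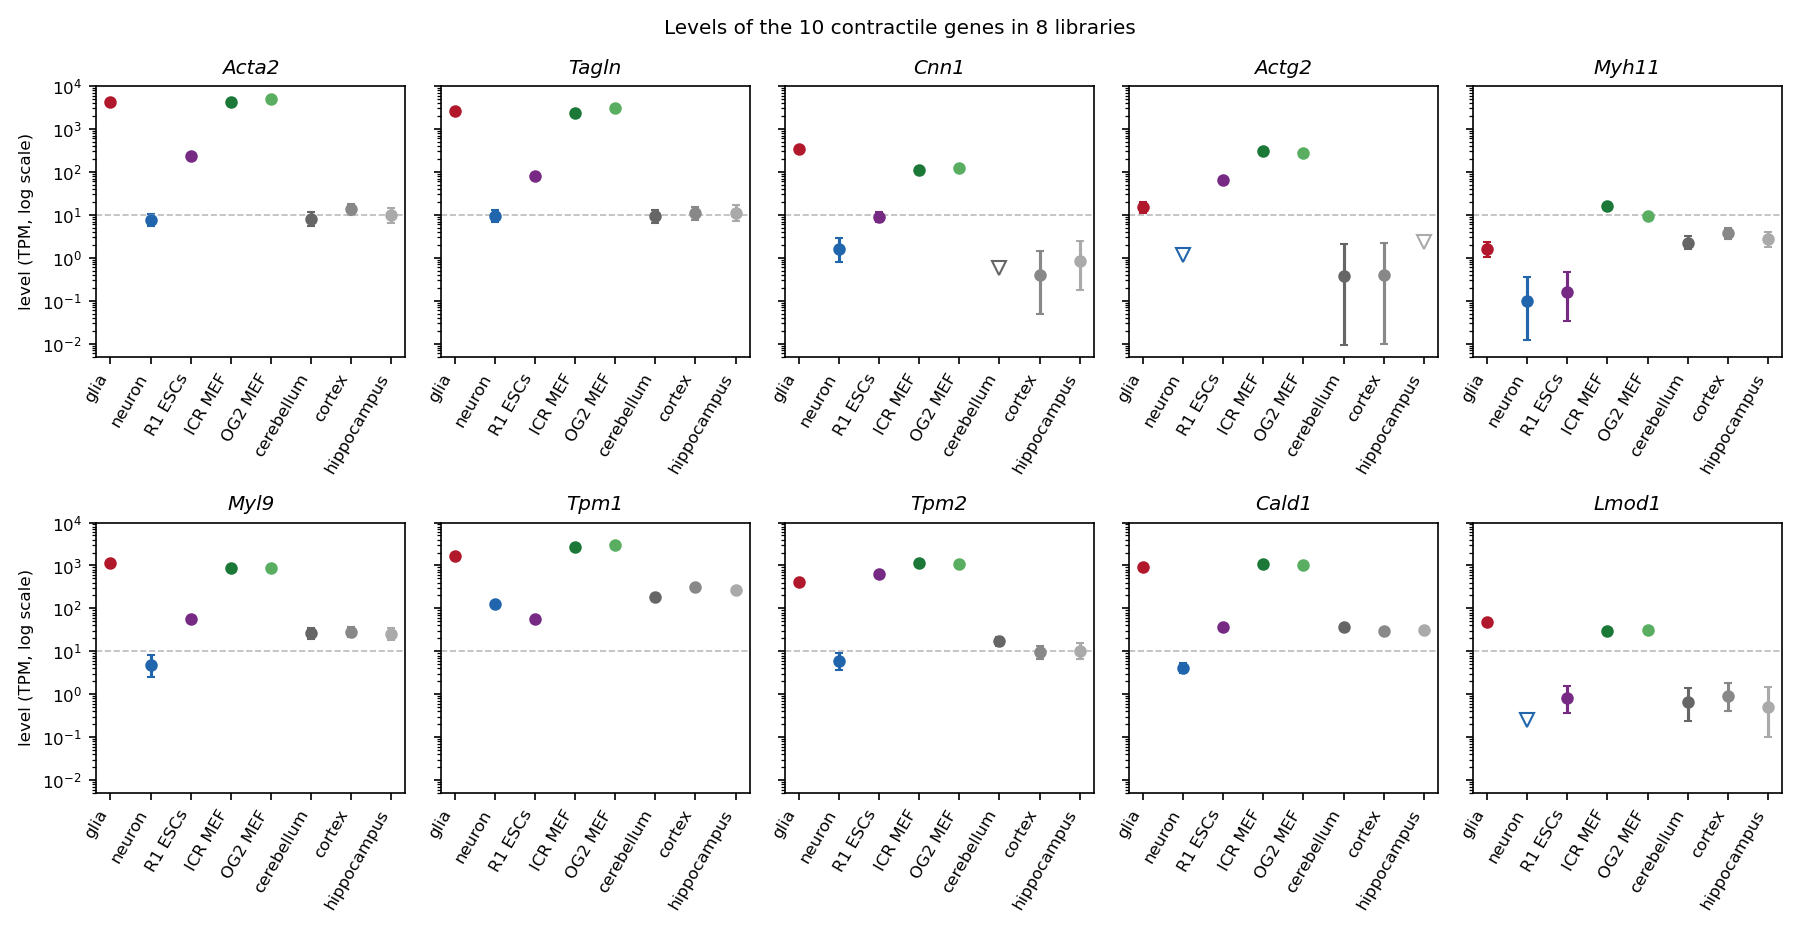
Level of each member (TPM, log axis) in the 8 libraries. Circles are TPM with 95% counting intervals, open triangles mark libraries with 0 counts at the TPM worth of 3 counts, and the dashed line is 10 TPM. Acta2 stands at 4147 TPM in glia and 4302 and 5067 TPM in the MEFs, while Myh11 stands at 1.59 TPM in glia and 15.9 and 9.62 TPM in the MEFs.

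Summed over the 10 members, the level was 11199 TPM in glia, 157 in neuron, 1159 in the library labelled R1 ESCs, 12931 in ICR MEF, 14569 in OG2 MEF, 281 in cerebellum, 420.03 in cortex and 353 in hippocampus. The members therefore took 1.12% of all TPM in glia, 1.29% in ICR MEF and 1.46% in OG2 MEF, and 0.0157% in neuron. Across the 8 libraries, Pearson's r of a member's log2(TPM + 1) with the mean of the other 9 was 0.991 for Tagln, 0.986 for Acta2, 0.977 for Myl9, 0.960 for Cald1 and 0.958 for Lmod1. It was 0.944 for Cnn1, 0.901 for Tpm2, 0.868 for Actg2, 0.822 for Tpm1 and 0.591 for Myh11. These r describe 8 points that fall into a high and a low set, and each library's depth and composition are shared by all of its genes.

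The libraries were compared by a rule of size. A call needed a level of 10 TPM or more in all libraries of the higher side, and a 4-fold gap on TPM + 1 between the lowest of these and the top library of the lower side. Each count of members is set beside the share of all genes called in that direction, over genes with at least 10 TPM in a library compared. Members and listed genes under that level in every library compared stay in the counts, though they could not be called. Folds are on TPM as deposited, between the nearest libraries of the 2 sides. Log2 differences of groups are between means of log2(TPM + 1). Comparisons that use the same libraries, such as glia and the MEFs each against the brain regions, are not independent of each other.

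Between glia and the other brain libraries, the contrasts on which the set was assembled, 9 of 10 members were called higher against neuron (30.5% of all genes) and 9 of 10 against the brain regions (6.19% of all genes). None was called lower (10.4% and 8.1% of all genes). Against neuron the fold was 546 for Acta2 (398 to 772), 275 for Tagln, 211 for Cnn1, 233 for Myl9, 220.0 for Cald1, 70.0 for Tpm2 and 13.2 for Tpm1. Lmod1 was at least 191-fold and Actg2 at least 12.8-fold higher, with 3 counts taken for the 0 in neuron. Myh11 was the member not called in either contrast. Against the nearest brain region the folds ranged from 5.03 for Tpm1 (4.73 to 5.36) to 395 for Cnn1 (135 to 1920).

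MEFs had far more of these transcripts than brain tissue. In MEFs against the brain regions 9 of 10 members were called higher, where 5.68% of all genes were, and 0 lower, where 14.5% were. The median log2 difference of the members was 5.71, and that of all genes was -0.75. Acta2 was 318-fold higher (241 to 428), Tagln 214-fold (145 to 331), Tpm2 64.2-fold (50.7 to 82.3), Myl9 30.6-fold, Cald1 27.8-fold (24.8 to 31.4) and Tpm1 8.25-fold (7.77 to 8.77). Cnn1 was 131-fold higher (44.7 to 638), Lmod1 32.0-fold (16.1 to 74.9) and Actg2 685-fold, an interval of 123 to 27100 since cortex had 1 count. Myh11 missed the call, with 15.9 and 9.62 TPM in the MEFs and 2.26 to 3.72 TPM in the brain regions, a nearest fold of 2.58 (1.91 to 3.55).

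Glia and the MEFs had totals of the same order but not the same mixture. In glia against the MEFs 1 member, Actg2, was called lower (2.92% of all genes) and 0 higher (10.05% of all genes). Actg2 was 17.8-fold lower in glia (13.4 to 24.2). Myh11 was 6.06-fold lower in glia (4.09 to 9.28), not called because OG2 MEF was under 10 TPM, and without OG2 MEF both Actg2 and Myh11 were called. Tpm2 was 2.60-fold lower and Tpm1 1.64-fold lower in glia, while Cnn1 was 2.76-fold, Lmod1 1.55-fold and Myl9 1.26-fold higher. Acta2, Tagln and Cald1 were within 1.10-fold of the nearest MEF library. These folds are on TPM as deposited and move with the scaling. The median log2 difference was -0.18 for the members and 0.50 for all genes. With TMM factors of the TPM these medians were -0.72 and -0.02. With TMM factors of the counts they were -0.44 and 0.25, and by library total alone (CPM) -0.45 and 0.23.

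The library labelled R1 ESCs had less of most members than the MEFs, in a library where most genes were lower on the TPM scale. Of the 10 members 8 were called lower, where 44.6% of all genes were, and 0 higher, where 4.49% were. The median log2 difference was -4.02 for the members and -2.04 for all genes. Tpm1 was 47.0-fold lower (41.3 to 53.7), Lmod1 36.1-fold (18.8 to 79.8), Tagln 29.5-fold (26.5 to 33.0), Cald1 27.5-fold (24.7 to 30.7), Acta2 18.3-fold (17.2 to 19.4), Myl9 15.3-fold (13.0 to 18.1), Cnn1 12.5-fold (9.58 to 16.7) and Actg2 4.26-fold (3.67 to 4.97). Actg2 therefore stood near the median of all genes, and its call ended under each of 3 other scalings. Tpm2 was not called, with 619.6 TPM against 1145 and 1096 TPM in the MEFs, 1.77-fold lower (1.67 to 1.87). Myh11, with 3 counts in the library labelled R1 ESCs, was at 0.16 TPM there, against 15.9 TPM in ICR MEF and 9.62 TPM in OG2 MEF, a difference whose interval runs from 20.2-fold to 293-fold. It was not called because OG2 MEF was under 10 TPM, and was called without OG2 MEF. The markers of the label were sparse in this library. Pou5f1 was at 20.2 TPM and Nanog at 10.3 TPM, Zfp42, Utf1, Dppa5a and Lin28a were at 0, and the keratins Krt14, at 142 TPM, and Krt8, at 36.9 TPM, were present. Their part in the levels of the members was not tested.

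Neuron was near the brain regions for Acta2 and Tagln, and below all of them beyond counting error for Myh11, Cald1, Myl9 and Tpm1. In neuron against the brain regions 2 members were called lower, where 16.4% of all genes were, and 0 higher, where 1.68% were. Of the 10 members 6 had at least 10 TPM in a library compared. Cald1 was 6.97-fold lower (5.09 to 9.70) and Myl9 5.41-fold lower (2.77 to 11.3). Myh11, with 2 counts in neuron, was 22.6-fold lower there (5.80 to 194) and could not be called, since every brain region was under 10 TPM. Neither the Cald1 nor the Myl9 call held under scaling by TMM factors of the TPM or by library total alone (CPM). Acta2 was at 7.60 TPM in neuron and 8.02 to 13.5 TPM in the brain regions, and Tagln at 9.32 TPM in neuron and 9.42 to 11.2 TPM in the regions. The median log2 difference was -0.82 for the members and -1.13 for all genes.

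Within the fibroblasts and within the brain no member was called. In ICR MEF against OG2 MEF 0.437% of all genes were called higher and 0.149% lower. The largest difference among members was that of Myh11, 1.65-fold higher in ICR MEF (1.37 to 1.99), followed by Tagln, 1.26-fold lower (1.23 to 1.30). In cerebellum against cortex and hippocampus 2.25% of all genes were called higher and 3.01% lower. In cortex against hippocampus the shares were 0.832% and 0.452%. Tpm1 was ordered beyond counting error here, since cerebellum had 180.4 TPM, cortex 323 TPM and hippocampus 261 TPM, and Tpm2 was 1.65-fold higher in cerebellum than in hippocampus (1.01 to 2.80).

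**Figure D2:**
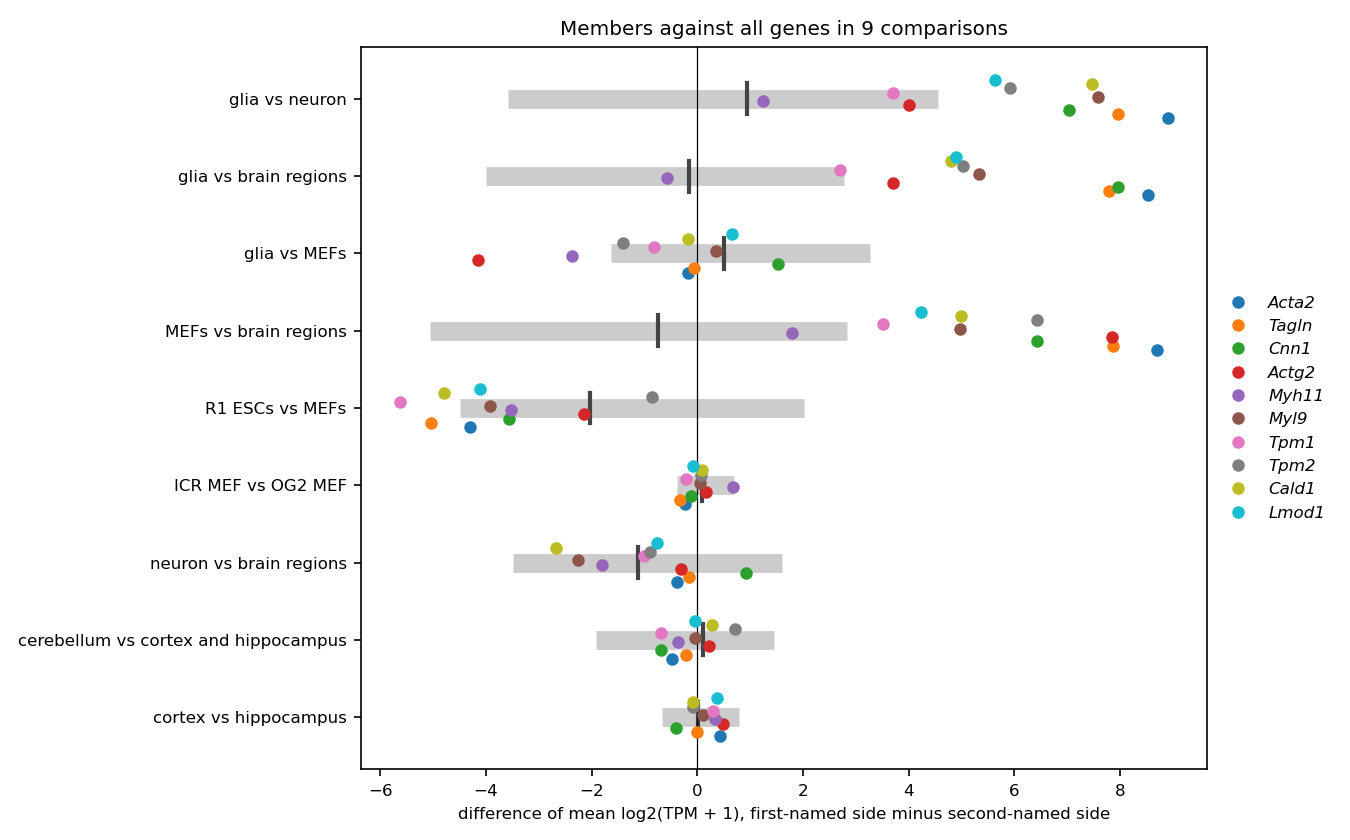
Difference of mean log2(TPM + 1) for each member (coloured points) in 9 comparisons, the first-named side minus the second. Grey bars span percentiles 5 to 95 of all genes with at least 10 TPM in a library compared, and the dark tick is their median. In MEFs against brain regions the grey bar ends at 2.84 and Acta2 stands at 8.70; in glia against MEFs Actg2 stands at -4.15 and Myh11 at -2.37, with the grey bar starting at -1.63.

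For 9 of the members, all but Cald1, the share of the summed level of a gene family was computed, which sets each beside its muscle and non-muscle paralogues. Acta2 made up 34.1% of the TPM of 6 actins in glia (33.7 to 34.5), 0.159% in neuron, 3.70% in the library labelled R1 ESCs, 32.5% in ICR MEF and 35.1% in OG2 MEF, and 0.349% to 0.50% in the brain regions. The remainder was mostly the cytoplasmic actins Actb and Actg1. Actb alone made up 76.0% in the library labelled R1 ESCs. The skeletal actin Acta1 made up at most 0.777% and the cardiac actin Actc1 at most 0.00492% in any library.

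Tagln made up 83.7% of its family in glia, 3.65% in neuron, 16.9% in the library labelled R1 ESCs, 77.2% in ICR MEF and 80.3% for OG2 MEF. The neuronal paralogue Tagln3 took 92.7% in neuron and 85.8% to 96.2% in the brain regions, and Tagln2, found in many cell types, took 83.02% in the library labelled R1 ESCs. Cnn1 was a minor calponin everywhere, at 12.01% in glia, 12.1% in the library labelled R1 ESCs, 8.31% in ICR MEF and 9.08% for OG2 MEF. The leading calponin was Cnn3 in glia, with 68.3%, and Cnn2 in ICR MEF and OG2 MEF, with 53.1% and 55.1%.

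Tpm1 made up 52.7% of the tropomyosins in glia, 51.5% and 54.5% in ICR MEF and OG2 MEF and 43.1% to 56.0% in the brain regions. Its level in glia and in the MEFs was nevertheless 5.03-fold or more above that in every brain region. Tpm3 led in neuron with 60.3%, and Tpm2 led in the library labelled R1 ESCs with 63.8%. Myl9 made up 46.3% of 3 regulatory light chains in glia, 1.05% in neuron, 43.4% in the library labelled R1 ESCs, 33.6% in ICR MEF, 36.4% in OG2 MEF and 6.05% to 6.44% in the brain regions, where Myl12b led with 79.3% to 85.5%.

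Myh11 was at most 2.07% of 4 class II myosin heavy chains in any library. The non-muscle chain Myh10 led in glia with 62.8%, and the non-muscle chain Myh9 led in both MEF libraries with 71.1%. Lmod1 made up 22.9% of leiomodins and tropomodulins in glia, 36.1% in ICR MEF and 36.5% in OG2 MEF, and at most 0.365% in the brain regions, where the neuronal Tmod2 led with 61.5% to 78.3%.

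**Figure D3:**
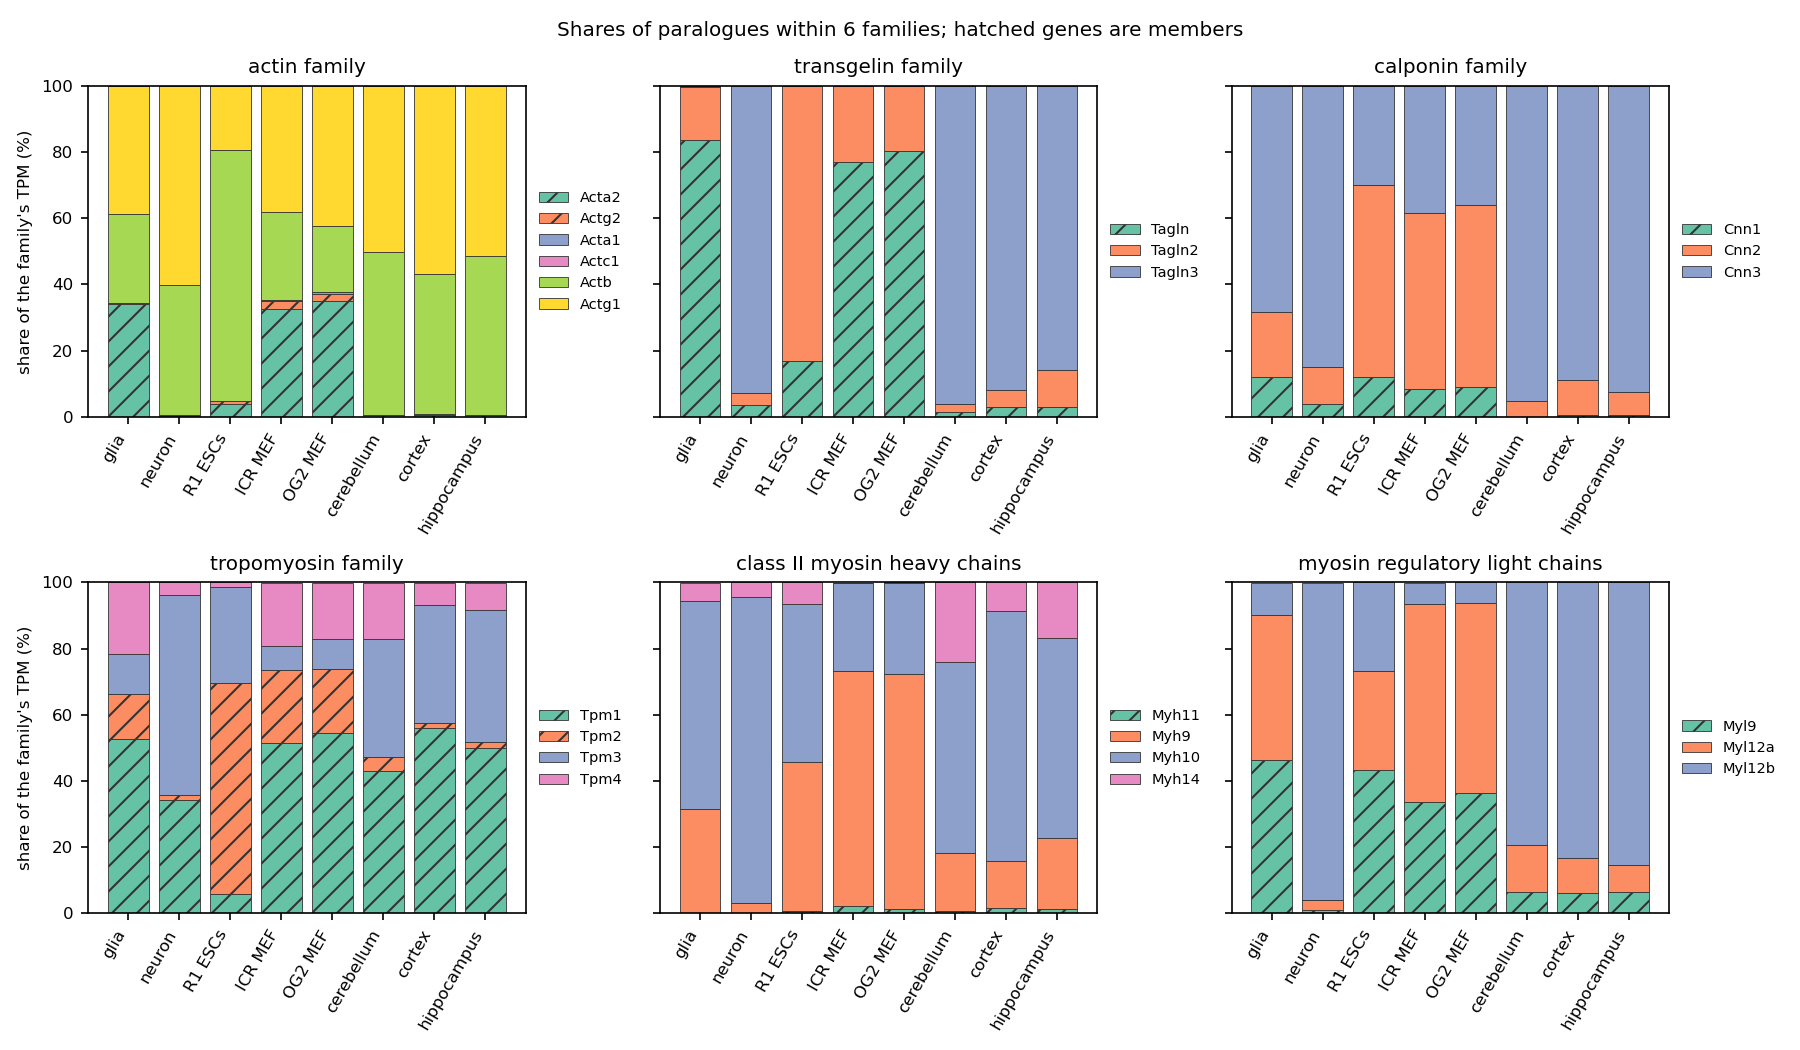
Share of each family's summed TPM (%) taken by each gene, in 6 families and 8 libraries; hatched genes are members. Acta2 fills 34.1% of the actin bar in glia and 32.5% and 35.1% in the MEFs, and Tagln3 fills 92.7% of the transgelin bar in neuron.

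For members with several annotated transcripts, the deposited mean transcript length, an estimate from the reads, differed between libraries. Tpm2 averaged 1455 bases in glia, 1238 in neuron, 1208 in the library labelled R1 ESCs, 1196 in ICR MEF, 1182 in OG2 MEF, 1902 in cerebellum, 1739 in cortex and 1520.1 in hippocampus. The estimated Tpm2 length was therefore longer in the brain regions than in the fibroblasts, with glia between them, although the brain regions rested on 22 to 71 counts. Tpm1 averaged 1585 bases in glia, 1634 in ICR MEF and 1711 in OG2 MEF, and 1934 in neuron, 2144 in cerebellum, 1746 in cortex and 1735 in hippocampus. Cald1 averaged 3457 bases in glia, 3242 in ICR MEF and 3454 in OG2 MEF, and 4041 in neuron from 50 counts, 3437 in cerebellum, 3162 in cortex and 3647 in hippocampus. Acta2, Tagln, Cnn1, Myh11 and Lmod1 had 1 transcript each. No interval can be given for these lengths, and which isoforms were used was not tested.

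Genes that control contraction did not follow the members in MEFs against brain tissue. Of 18 such genes, in MEFs against the brain regions, 0 were called higher and 3 lower: Kcnma1, a calcium-activated potassium channel, 39.5-fold, Itpr1, the calcium release channel, 12.4-fold, and Ppp1r12b, a myosin phosphatase subunit, 4.95-fold. Of all genes 5.68% were called higher there and 14.5% lower. The median log2 difference of the list was -0.81, near the -0.75 of all genes. In glia against neuron 5 of the 18 were called higher and 0 lower, beside 30.5% and 10.4% of all genes. In glia against the brain regions 0 were called higher and 4 lower, beside 6.19% and 8.1%. Mylk, the myosin light chain kinase, was at 4.01 TPM in glia, 0.46 in neuron, 0.05 in the library labelled R1 ESCs, 11.95 in ICR MEF, 7.15 in OG2 MEF, 1.74 in cerebellum, 8.43 in cortex and 5.02 in hippocampus. Its level in the MEFs thus overlapped that in brain tissue. Myl6, the essential light chain, was at 2598 TPM in glia, 2284 in neuron, 3564 in the library labelled R1 ESCs, 2858 in ICR MEF and 3186 in OG2 MEF, and 757 to 829.7 in the brain regions, with no call in any of these comparisons. In the library labelled R1 ESCs against the MEFs 8 of 18 were called lower, among them Rhoa 31.8-fold, Ppp1cb 29.9-fold and Atp2a2 23.7-fold. Of the 18, 13 had at least 10 TPM in a library compared. Among all genes at that level 44.6% were called lower.

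Adhesion and cytoskeleton genes of smooth muscle did stand higher in MEFs, 11 of 24 against the brain regions with 0 lower and a median log2 difference of 2.97. Of all genes 5.68% were called higher there and 14.5% lower. Palld, which cross-links actin at adhesions, was 25.7-fold higher (18.1 to 37.5), the intermediate filament gene Vim 20.8-fold (19.6 to 22.0), Filip1l 19.6-fold (13.4 to 29.7) and the integrin gene Itgb1 18.3-fold (16.6 to 20.3). In glia against the MEFs the list was split, with 2 called higher and 3 lower, beside 10.05% and 2.92% of all genes. The integrin gene Itga1 was 13.2-fold higher in glia (10.9 to 16.3), and Des, desmin of muscle intermediate filaments, 34.4-fold, Filip1l 10.5-fold and Fhl2 4.93-fold lower. In the library labelled R1 ESCs against the MEFs 18 of 24 were called lower, including Vcl, vinculin, 442-fold (240.0 to 922), and 0 higher. Of all genes 44.6% were called lower there and 4.49% higher.

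Regulators known to act on such genes were measured too. Srf was at 31.6 TPM in glia, 10.04 in neuron, 9.22 in the library labelled R1 ESCs, 34.5 in ICR MEF, 32.4 in OG2 MEF, 17.9 in cerebellum, 38.0 in cortex and 33.0 in hippocampus. Srf thus lay at 31.6 to 38.0 TPM in glia, the MEFs, cortex and hippocampus, and lower in cerebellum. Acta2 was 306-fold or more higher in glia and in the MEFs than in any brain region. The part of Srf in the Acta2 levels was not tested. Myocd, myocardin, was at 0.11 TPM in glia, 0 in neuron, 0 in the library labelled R1 ESCs, 0.96 in ICR MEF, 0.84 in OG2 MEF, 2.14 in cerebellum, 0.36 in cortex and 0.19 in hippocampus. The myocardin-related factor Mrtfa was at 16.5 TPM in glia, 16.0 in neuron, 8.04 in the library labelled R1 ESCs, 32.3 in ICR MEF, 30.5 in OG2 MEF, 17.5 in cerebellum, 34.3 in cortex and 59.4 in hippocampus. Mrtfb was at 16.6 TPM in glia, 12.5 in neuron, 4.40 in the library labelled R1 ESCs, 11.7 in ICR MEF, 12.5 in OG2 MEF, 23.2 in cerebellum, 99.3 in cortex and 82.3 in hippocampus. Srf, Mrtfa and Mrtfb were not called in any comparison between glia, MEFs and brain regions. Myocd was under 10 TPM in every library and could not be called.

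Among all 16 measured regulators, 3 were called higher and 1 lower in MEFs against the brain regions, beside 5.68% and 14.5% of all genes. The higher ones were Prrx1, a mesenchymal factor, 23.8-fold (19.6 to 29.3), and the TEAD factors Tead3, 8.12-fold (4.85 to 14.7), and Tead1, 6.74-fold (5.65 to 8.10). Mef2c was 5.63-fold lower (4.05 to 7.99). Tead1 was at 101 TPM in glia, 1.17 in neuron, 3.23 in the library labelled R1 ESCs, 76.7 in ICR MEF, 68.0 in OG2 MEF and 7.99 to 10.1 in the brain regions, so glia and both MEFs were high and the library labelled R1 ESCs was among the low ones. The TEAD coactivator Wwtr1 was at 139.7 TPM in glia, 54.6 in ICR MEF and 49.1 in OG2 MEF, against 10.3 to 11.8 in the brain regions, and was called in glia but not in the MEFs.

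Of 20 genes of TGF-beta signalling and the myofibroblast state, 11 were called higher and 0 lower in MEFs against the brain regions, with a median log2 difference of 3.10. Of all genes 5.68% were called higher there and 14.5% lower. Among the 11 were the matrix genes Thbs1, 423-fold higher (323 to 565), and Postn, 54.9-fold higher (36.8 to 85.8). Glia differed from the MEFs in 4 of the 20, all lower in glia, among them Postn 72.4-fold (48.5 to 113), Inhba 10.1-fold and Tgfbr3 6.11-fold. Of all genes 2.92% were called lower there and 10.05% higher. In the library labelled R1 ESCs against the MEFs 18 of the 20 were called lower, where 44.6% of all genes were.

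Markers of cells that carry these genes in brain vessels were set beside the members. Of 12 mural cell markers, summed levels were 158 TPM in glia, 7.78 in neuron, 142 in the library labelled R1 ESCs, 259 in ICR MEF and 203 in OG2 MEF, and 203 to 221 in the brain regions, where the members were at 281 to 420.03 TPM. Rgs5 was at 2.62 TPM in glia, 1.89 in neuron, 0 in the library labelled R1 ESCs, 3.03 in ICR MEF, 2.26 in OG2 MEF, 73.6 in cerebellum, 68.4 in cortex and 63.8 in hippocampus. Vtn was at 0.36 TPM in glia and 66.1 to 89.2 TPM in the brain regions, and Kcnj8 and Higd1b were at 0 in glia. Pdgfrb was at 25.1 TPM in glia, 0.19 in neuron, 2.50 in the library labelled R1 ESCs, 142 in ICR MEF, 106 in OG2 MEF, 8.43 in cerebellum, 10.01 in cortex and 10.5 in hippocampus. Notch3 was at 16.8 TPM in glia, 0.38 in neuron, 0.75 in the library labelled R1 ESCs, 5.83 in ICR MEF, 6.44 in OG2 MEF, 5.51 in cerebellum, 7.70 in cortex and 3.99 in hippocampus. Des was at 1.04 TPM in glia, 0 in neuron, 2.52 in the library labelled R1 ESCs, 35.8 in ICR MEF, 55.0 in OG2 MEF, 10.3 in cerebellum, 1.91 in cortex and 0.92 in hippocampus. Of the 12 arterial smooth muscle markers 2, Cnn1 and Myh11, are members. The list summed to 394 TPM in glia, of which Cnn1 had 341, to 396 TPM in neuron, of which Rgs4, a gene that neurons also express, had 391, and to 48.3 TPM in the library labelled R1 ESCs, 307 in ICR MEF and 275 in OG2 MEF. It summed to 109.7 to 398 TPM in the brain regions. In glia against the brain regions 1, Cnn1, was called higher and 1, Rgs4, lower, beside 6.19% and 8.1% of all genes. Pln was at 0 TPM in glia and 0.60 to 1.16 TPM in the brain regions, and Casq2 at 2.68 TPM in glia and 3.31 to 59.0 TPM in the brain regions. Of the 12 mural markers 0 were called higher and 2, Rgs5 and Vtn, lower in glia against the brain regions, with a median log2 difference of -1.12. The glia library, at 11199 TPM of the members, thus had Rgs5 and Vtn near 0. Pdgfrb and Notch3 stood above the brain regions without a call. The mural sums also include markers not named here.

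The other marker lists that could move with the members were mixed in glia. Of all genes, 6.19% were called higher and 8.1% lower in glia against the brain regions. Against the MEFs the shares were 10.05% and 2.92%. Of 12 endothelial markers, 5 were at 0 in glia, among them Pecam1, Cldn5 and Tie1, and the summed level was 148 TPM in glia, of which Slco1a4 alone had 135 TPM, against 275 to 317 TPM in the brain regions. Of 14 fibroblast markers, 5 were called higher and 2 lower in glia against the brain regions. Col1a1 was at 59.2 TPM in glia, 3058 in ICR MEF and 2853 in OG2 MEF, and 2.52 to 5.19 in the brain regions. In glia against the MEFs 7 of the 14 were lower and 1, Igfbp2, higher. Of 12 astrocyte markers, which check the label, 9 were called higher in glia than in the MEFs, with Gfap at 1492 TPM in glia against 2.48 and 1.49 TPM in ICR MEF and OG2 MEF. Against the brain regions 2 of the 12 were called higher and 3 lower in glia. Microglia markers were present too, with 9 of 12 called higher in glia than in the MEFs. Oligodendrocyte markers summed to 264 TPM in glia, against 4571 to 6060 TPM in the brain regions. The 10 neuron markers summed to 459 TPM in glia and 5558 TPM in neuron, and to 7446 to 8551 TPM in the brain regions. The proliferation gene Mki67 was at 90.04 TPM in glia, 39.8 in ICR MEF and 25.6 in OG2 MEF, against 0.42 to 1.21 in the brain regions, and 9 of 10 such genes were called higher in glia than in the brain regions. The part of these cells in the members' levels was not tested.

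In neuron against the brain regions, 3 of 12 mural markers and 5 of 12 endothelial markers were called lower, as Cald1 and Myl9 were. So were 9 of 12 astrocyte markers and 8 of 10 oligodendrocyte markers, beside 16.4% of all genes. Of these lists 5 mural, 8 endothelial, 12 astrocyte and 9 oligodendrocyte markers had at least 10 TPM in a library compared. Their part in the Cald1 and Myl9 levels was not tested. Rgs5 was 33.7-fold lower in neuron (20.8 to 58.4), and Vtn at least 65.5-fold lower. Summed endothelial markers were at 4.70 TPM in neuron. Acta2 and Tagln were within 1.06-fold and 1.01-fold of cerebellum, the nearest region. Acta2 was at 7.60 TPM in neuron and 13.5 TPM in cortex, the highest region.

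**Figure D4:**
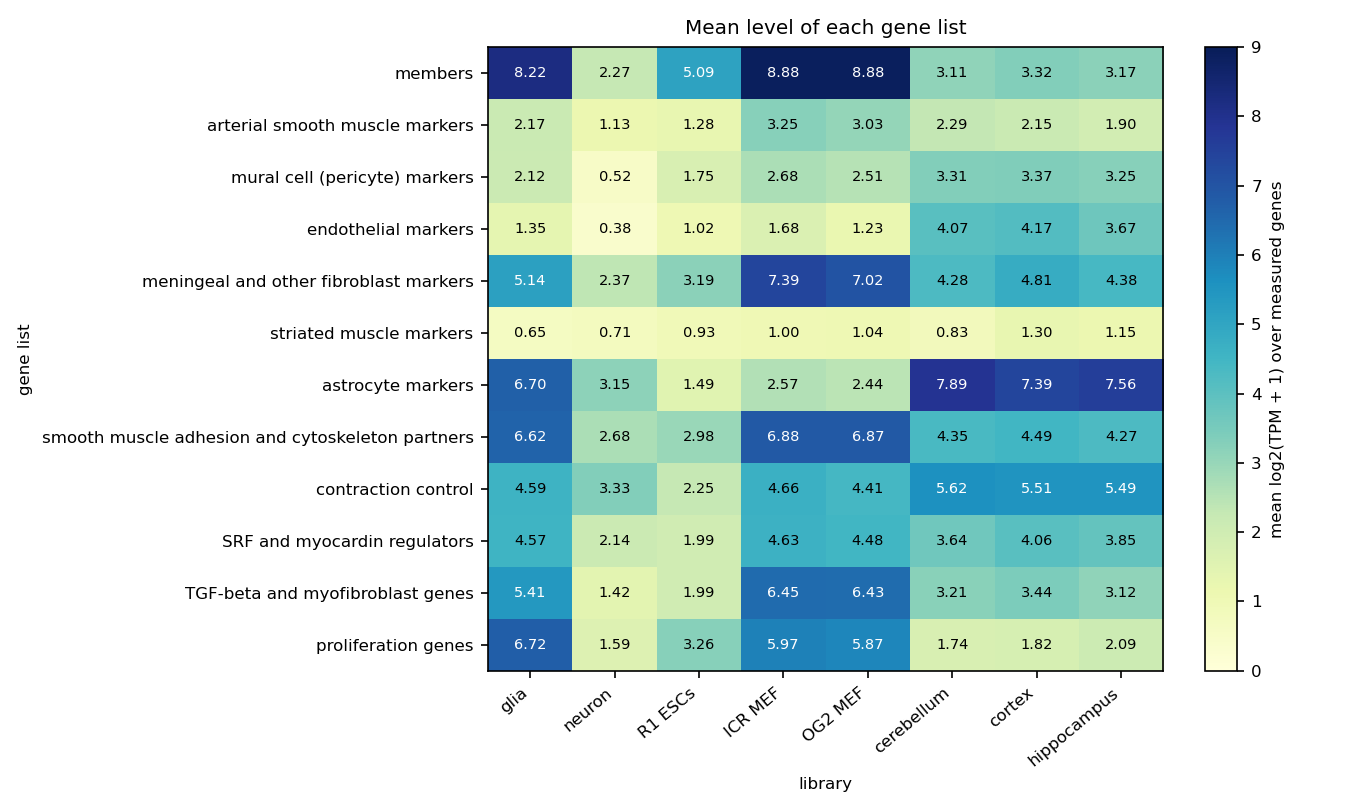
Mean log2(TPM + 1) over the measured genes of 12 lists (rows) in 8 libraries (columns), with darker cells higher. The members average 8.22 in glia, 8.88 in both MEF libraries and 3.11 to 3.32 in the brain regions, while mural cell markers average 2.12 in glia and 3.25 to 3.37 in the brain regions.

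A search covered 6933 protein-coding genes with at least 50 TPM in a library, members at that level among them. Predicted gene models, Rik-named genes and ribosomal genes were left out. Ranked without the members, it gave the genes whose log2(TPM + 1) over the 8 libraries was most like the mean of the members. They were Cnn2 (Pearson's r 0.999), Flnc (0.997), Emp1 (0.997), Loxl1 (0.996), Fstl1 (0.991), Hspg2 (0.990), Elk3 (0.989), Ccdc80 (0.989), Ifitm2 (0.989) and Tubb6 (0.988). Cnn2, a calponin found in smooth muscle and non-muscle cells, was at 558 TPM in glia, 4.51 in neuron, 43.5 in the library labelled R1 ESCs, 724 in ICR MEF, 748 in OG2 MEF, 7.82 in cerebellum, 10.8 in cortex and 8.91 in hippocampus. Flnc, the muscle filamin, was at 40.6 TPM in glia, 0.11 in neuron, 5.30 in the library labelled R1 ESCs, 89.9 in ICR MEF, 106 in OG2 MEF and 0.70 to 1.03 in the brain regions. For Acta2 alone the most alike were Tuba1c (0.995), its fellow member Tagln (0.994), Hspg2 (0.993), Cnn2 (0.993) and Ifitm2 (0.992). These r rest on 8 libraries that form a high and a low set.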

How the data were processed

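RNA of 8 mouse libraries was taken up in Trizol and made into TruSeq libraries, per the labels' protocols. Reads were processed with Bowtie and RSEM on mm10, per the submitters' processing notes; no version, annotation release or strandedness is given in the sources used here. Expected counts, TPM, FPKM (not used here) and mean transcript lengths per gene were deposited by the authors, per the file headers. Recomputing TPM from counts and effective lengths gave 99.9% of the values at 10 TPM or more to within 1%. Total expected counts ran from 2147004 to 5864673, at which 3 counts on 2000 bases are worth 0.461 to 0.943 TPM.

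TPM were used as deposited. Counts were rounded for exact Poisson intervals of levels and Clopper-Pearson intervals (95%) of folds and shares, which cover counting error only. For bounds, a library with 0 counts was given 3. The 9 comparisons use the calling rule given in the results. Each group held 1 library, and no test across libraries was run. The members, lists, comparisons and rules were chosen with earlier results of these data known. Named genes are all members and their paralogues, 4 regulators and 4 mural markers in every library, up to 4 called genes per list and direction, and the 10 and 5 genes most alike in pattern. Other genes named (label checks, Mylk, Myl6, Pln, Casq2, Wwtr1, Mki67, Pcsk7) were chosen after their values were seen. Some genes that met the naming rule are left out of the text.

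Alternatives were 0.1 or 5 TPM added, no floor, a floor of 1 TPM, a 2-fold threshold, TMM factors (edgeR 4.0.16 in R 4.3.3) of the TPM or of the counts, CPM from the counts, counts thinned to the smallest total, and leaving out each library of a side with more than 1. Python 3.11.15, numpy 2.4.6, pandas 2.3.3, scipy 1.17.1, Biopython 1.88 and matplotlib 3.10.9 were used. Coordinates are from GENCODE M21 by gene identifier. The deposited transcript length of Acta2 was 1781 bases and that in M21 2035, so the releases differ.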

Additional observations from a re-analysis of the deposited data

How the results depend on the processing

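Of 196 recomputed counts of members called, 184 stayed within 1.5 times the count reported and 12 did not. In glia against MEFs the count of members lower was 1 and became 2 with the floor at 1 TPM or absent, with TMM factors of the TPM or of the counts, or with CPM (Actg2 and Myh11), and 2 with a 2-fold threshold (Actg2 and Tpm2), which also gave 1 higher (Cnn1, reported 0). Without single MEF libraries it was 1 to 2. In neuron against brain regions the count lower was 2 and became 0 with 5 TPM added, 0 with TMM factors of the TPM, 0 with CPM and 1 with TMM factors of the counts (Cald1). Of 980 gene values 952 kept their call or their lack of one, 14 lost a call and 14 gained one. Among the values called in the main setting 0 reversed direction. A change of direction was not counted for values that were not called. In the library labelled R1 ESCs against MEFs, Actg2 was not called with TMM factors of the TPM (log2 difference -0.36), of the counts (-1.45) or CPM (-0.98), nor Cnn1 with TMM factors of the TPM (-1.87). Myh11 there was called lower with the floor at 1 TPM or absent, with both TMM settings, with CPM and without OG2 MEF (-3.13 to -4.32). The scalings moved the median of all genes there to -0.41, -1.42 and -1.06, against -2.04 on TPM. No paired analysis was possible because each group holds 1 library. Depth limits Cnn1, Actg2 and Lmod1 in neuron and the brain regions, and Myh11 among the brain regions, where their orders could not be resolved.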
